A study of Homo sapiens with 4 samples.

Results

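The m7G peaks listed over exons of 9 large mucin genes were described in 2 acute myeloid leukemia cell lines. The genes were the gel-forming mucins MUC2, MUC5AC, MUC5B, MUC6 and MUC19 and the membrane-bound mucins MUC4, MUC12, MUC16 and MUC17. A peak was given to a gene when it overlapped any annotated exon of that gene by at least 1 base on the same strand of hg19. By this rule 28 of the 8070 peaks listed for HL60 and 24 of the 8122 peaks listed for HL60/MX2 were mucin peaks, 52 in all. The 9 genes were selected on the presence of listed peaks over their exons in these same lists, so the numbers of peaks are given as a description and no test was made on them.

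HL60 is a human promyelocytic leukemia line, labelled as wild type, and HL60/MX2 is the drug-resistant line raised from it with mitoxantrone. Both lines were grown without any stated treatment in the same serum-containing medium, and poly(A) RNA was decapped and fragmented before it was pulled down with an antibody to m7G, a guanosine that carries an extra methyl group. The series holds 4 libraries, an enriched and an input library of each line, and only the 2 lists of peaks called in the enriched libraries were used here. Each line thus had 1 enriched library and no replicate, so no difference between the lines was tested. The depth is unknown, as the lists give no reads, and an expression difference and a methylation difference cannot be told apart. The score deposited for each peak has no stated scale, and it was compared only within a list, as a percentile of that list.

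Mucins are very large glycoproteins that cover and protect epithelial surfaces. Their centre is a long stretch rich in serine, threonine and proline, often built of tandem repeats, to which dense O-linked sugars are attached, and in many mucin genes most of this stretch is encoded by a single very large exon. Gel-forming mucins are secreted and join end to end through cysteine-rich domains of the von Willebrand type at both ends, whereas membrane-bound mucins stay anchored in the cell surface, several of them through a SEA domain near the membrane. They are best known from the airway, gut, salivary glands and reproductive tract, and leukemia cells are not a usual source of them.

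The sequences of the overlaps between the lists are shown first, since these are the stretches listed in both lines. All are given on the strand of the gene, 5′ to 3′, read from the hg19 (GRCh37) genome, and capitals mark the bases under the peaks of both lists. The MUC16 overlap lies in exon 4 on the minus strand (chr19:9084405-9084586 as printed, with 122 bases in capitals), the MUC4 overlap in exon 2 on the minus strand (chr3:195517199-195517320, 62 bases in capitals), and the MUC12 stretch is the middle 240 bases of a 349 bp overlap in exon 5 on the plus strand (chr7:100648141-100648380).
MUC16 overlap: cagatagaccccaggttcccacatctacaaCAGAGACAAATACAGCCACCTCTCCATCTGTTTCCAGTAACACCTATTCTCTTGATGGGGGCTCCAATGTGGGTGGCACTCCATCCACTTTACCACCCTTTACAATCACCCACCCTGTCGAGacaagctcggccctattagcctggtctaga
MUC4 overlap: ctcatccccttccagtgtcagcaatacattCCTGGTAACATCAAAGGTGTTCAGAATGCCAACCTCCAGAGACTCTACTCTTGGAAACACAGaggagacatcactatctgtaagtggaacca
MUC12 overlap: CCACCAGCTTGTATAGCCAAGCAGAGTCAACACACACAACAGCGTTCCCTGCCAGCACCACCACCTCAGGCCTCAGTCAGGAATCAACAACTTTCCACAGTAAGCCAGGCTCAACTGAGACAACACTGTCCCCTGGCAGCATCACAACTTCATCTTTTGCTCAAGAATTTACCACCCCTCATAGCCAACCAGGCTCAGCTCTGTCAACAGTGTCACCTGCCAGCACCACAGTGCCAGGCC

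The next set shows MUC16 peaks that started and ended exactly at the ends of an exon of at most 68 bases, with the exon and peak in capitals and 20 bases of flanking intron on each side in lower case. Exon 33 (chr19:9015298-9015405 as printed) was listed in HL60, and exons 63 (chr19:8997098-8997205), 83 (chr19:8968860-8968967), 30 (chr19:9016961-9017036) and 26 (chr19:9019255-9019360) were listed in HL60/MX2.
MUC16 exon 33: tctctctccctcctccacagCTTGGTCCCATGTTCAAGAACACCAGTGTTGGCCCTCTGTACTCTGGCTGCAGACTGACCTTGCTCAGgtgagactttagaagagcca
MUC16 exon 63: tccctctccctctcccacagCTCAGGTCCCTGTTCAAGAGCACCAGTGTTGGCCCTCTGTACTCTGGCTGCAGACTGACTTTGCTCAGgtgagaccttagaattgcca
MUC16 exon 83: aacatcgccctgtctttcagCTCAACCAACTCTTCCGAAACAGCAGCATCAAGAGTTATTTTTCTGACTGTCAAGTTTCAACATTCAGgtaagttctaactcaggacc
MUC16 exon 30: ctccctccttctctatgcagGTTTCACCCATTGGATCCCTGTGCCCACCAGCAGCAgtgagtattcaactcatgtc
MUC16 exon 26: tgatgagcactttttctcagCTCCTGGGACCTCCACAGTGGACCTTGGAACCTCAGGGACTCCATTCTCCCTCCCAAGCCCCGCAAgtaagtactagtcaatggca

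Another set shows tandem repeats under HL60 peaks, with 1 repeat period in capitals between its neighbours in lower case. The MUC19 stretch has a period of 30 bases (chr12:40880586-40880675, plus strand) and the MUC2 stretch a period of 69 bases (chr11:1093026-1093232, plus strand).
MUC19 repeat: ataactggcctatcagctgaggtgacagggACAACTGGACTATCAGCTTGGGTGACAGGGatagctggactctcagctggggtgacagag
MUC2 repeat: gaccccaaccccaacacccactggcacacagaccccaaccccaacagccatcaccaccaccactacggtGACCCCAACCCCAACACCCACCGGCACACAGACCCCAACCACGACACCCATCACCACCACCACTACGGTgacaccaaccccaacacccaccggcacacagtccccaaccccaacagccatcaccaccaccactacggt

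MUC16 carried the most mucin peaks, with 9 in HL60 and 12 in HL60/MX2, and MUC19 came level with it in HL60 at 9 peaks but had 3 in HL60/MX2. In the same order of lines, MUC12 had 3 and 2 peaks, MUC4 had 3 and 1, and MUC17 had 1 and 3. MUC2 with 2 peaks and MUC5B with 1 peak were listed in HL60 but not in HL60/MX2, MUC5AC with 3 peaks was listed in HL60/MX2 but not in HL60, and MUC6 had no listed peak in either. A mucin gene was therefore listed in HL60 in 7 of 9 cases and in HL60/MX2 in 6 of 9, with 5 in both lists. Among all 20162 protein-coding genes 27.0% had a listed peak in HL60 and 29.5% in HL60/MX2, and 2470 genes had one in both lists. Among the 6940 genes with at least as much exon as MUC5AC (5930 bp) the shares were 40.3% in HL60 and 43.2% in HL60/MX2. Since the genes were picked for their peaks, nothing was read from this difference.

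**Figure D1:**
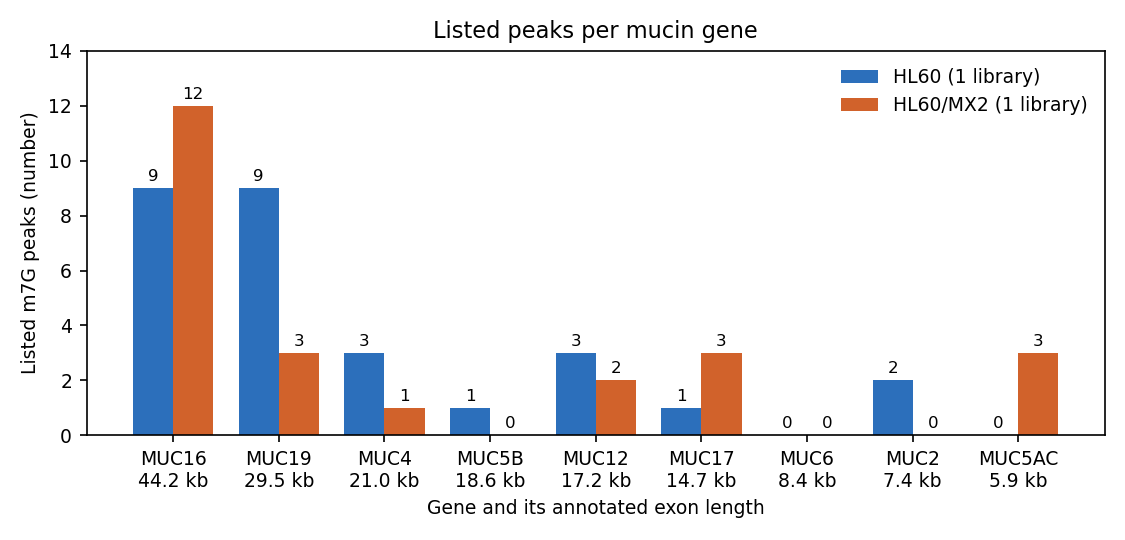
Number of listed m7G peaks over the exons of each mucin gene in HL60 (blue) and HL60/MX2 (orange), 1 library per line, with genes in order of annotated exon length. MUC16 had the most in both lists (9 and 12), MUC19 had 9 against 3, and MUC6 had none.

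Set against the length of the target, the 166.9 kb of mucin exon carried 0.168 listed peaks per kb in HL60 against 0.144 in HL60/MX2. Over the exons of all protein-coding genes the values were 0.0708 and 0.0722 peaks per kb, and over the genes with at least 5930 bp of exon they were 0.0661 and 0.0641. Per kb of its own exon, MUC19 had 0.305 peaks in HL60 against 0.102 in HL60/MX2. MUC16 had 0.204 against 0.272. MUC16 ranked 13 among protein-coding genes by exon length (44165 bp) and ranked 2 by number of peaks in HL60, level with MUC19, and 3 in HL60/MX2.

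MUC19 is a gel-forming mucin of salivary and other glands. It spans chr12:40787197-40964634 on the plus strand, and its longest coding transcript has 173 exons, of which exon 56 (12253 bp) makes up 49.7% of the mRNA. Of the 9 HL60 peaks, 7 lay in short exons before exon 56 (exons 9, 22, 23, 28, 35, 37 and 46). The residues under 4 of these peaks held cysteine, at 6.45% in exon 22, 13.6% in exon 28, 5.26% in exon 35 and 11.8% in exon 37, and those under the peaks in exons 9, 23 and 46 held none. The highest score among them was in exon 28 (chr12:40831930-40832059, 130 bp, score 571, percentile 92). The exon 37 peak (chr12:40839321-40839419, 99 bp) had a score of 403, and the peaks in exons 22 and 46 covered those exons from end to end (93 and 66 bp).

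The remaining HL60 peaks of MUC19 lay inside exon 56. One covered 414 bp (chr12:40875825-40876238, score 555, percentile 91.5) and read as 43.2% serine, threonine and proline, and the other covered 235 bp (chr12:40880514-40880748, score 85.1, percentile 16.3) over the 30-base repeat printed above, which matched itself at 80% of positions 1 period apart. On this genome the annotated reading frame met its first stop after residue 4197, within exon 56, so residues under later peaks were not read. The 3 HL60/MX2 peaks of MUC19 were small, at 11, 35 and 38 bp in exons 15, 77 and 148, and each ended exactly at an exon end. Their scores were 195, 136 and 245, all below the median of the HL60/MX2 list (259.7), and the closest of them to an HL60 peak was 6084 bp from it.

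MUC2 is the main gel-forming mucin of the intestine. It lies at chr11:1074875-1104416 on the plus strand, and its models on this genome are incomplete over the central repeats. One HL60 peak covered the last 139 bp of exon 28 of 30 (chr11:1090847-1090985, score 197, at the list median), where 66.0% of the residues were serine, threonine or proline. The other was 1013 bp long (chr11:1092623-1093635, score 1424, percentile 99.3), and only 37 of its bases were annotated as an exon. That stretch consisted of the 69-base repeat printed above, which equals 23 codons and matched itself at 88.5% of positions, and 67.2% of its bases lay in 50-base words found more than once in the genome. No MUC2 peak was listed in HL60/MX2, where the nearest peak on that strand lay 68561 bp away.

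MUC5AC is the gel-forming mucin of airway and stomach surface cells, and MUC5B is its neighbour, expressed in airway glands. MUC5AC (chr11:1151580-1222364, plus strand) was listed in HL60/MX2 with 3 peaks. The first covered all 165 bp of exon 15, the last exon of an incomplete coding model (chr11:1162197-1162361, score 504, percentile 76.5). The others lay in a 991-base exon of a noncoding transcript of the gene, at chr11:1212760-1213114 (355 bp, score 385) and chr11:1213363-1213569 (207 bp, score 504), and 69.6% of the bases of the first of these were in repeated words. MUC5B (chr11:1244296-1283402, plus strand) was listed in HL60 with 1 peak of 542 bp in its 10893 bp exon 31 (chr11:1272212-1272753, score 458, percentile 86.5). The residues under it were 60.2% serine, threonine and proline with no cysteine, and the sequence repeated with a period of 87 bases at 61.8% identity. MUC6, the gel-forming mucin of stomach glands (chr11:1012823-1036718, minus strand), has a large exon of 3009 bp that is 61.8% serine, threonine and proline, and it had no peak in either list.

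MUC16 carries the CA-125 antigen and is the largest of the membrane-bound mucins. It lies at chr19:8959520-9121066 on the minus strand, with 87 exons that encode 14547 residues in the longest coding transcript. Exons 4, 6 and 8 (9294, 21693 and 4680 bp) make up 81.5% of the mRNA and read as 47.8% serine, threonine and proline, and the other exons as 29.8%. After exon 8 the transcript runs through short exons in a recurring set, and exons 33 to 37 for example hold 468 bases, or 156 codons, the same step at which the residues of the short exons matched each other best (43.9% identity). In HL60, 7 of 9 MUC16 peaks lay in exons 4, 6 and 8 and 2 in the short exons, and in HL60/MX2 6 of 12 lay in each class.

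The highest scores of MUC16 in HL60/MX2 were in the large exons. A peak of 1468 bp in exon 6 (chr19:9072103-9073570, residues 4666 to 5155) had a score of 2400 at percentile 99 and was the second longest peak of that list, after one of 1561 bp. Peaks of 268 bp in exon 6 (chr19:9070273-9070540, score 1489) and of 262 bp in exon 4 (chr19:9086720-9086981, score 1416) lay at percentiles 97.6 and 97.3. The other large-exon peaks had scores of 400.3, 322 and 267.

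In HL60 the MUC16 peaks in large exons spread over nearly the whole range of the list. The highest score was that of a 226 bp peak in exon 6 (chr19:9068970-9069195, score 657, percentile 94.4), and the lowest that of a 237 bp peak in exon 4 (chr19:9086139-9086375, score 51.4, percentile 0.892). The longest, 922 bp in exon 6 (chr19:9067531-9068452), had a score of 123. The others were 704 bp with a score of 250.02, 325 bp with 90.4, 283 bp with 166 and 247 bp with 101.5. The longest of these peaks thus scored below the median of the list, and the shortest scored highest.

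The short exons of MUC16 listed in HL60 were not those listed in HL60/MX2, and only exons of 68 bases were listed in both lines. In HL60 they were exon 33, covered whole (68 bp, score 539.7, percentile 90.8), and 88 bp of exon 47 (chr19:9006642-9006729, score 319). In HL60/MX2 exons 26, 30, 49, 63 and 83 were covered whole, with scores of 332, 522, 916, 72.6 and 259.7, and a peak of 16 bp (chr19:8966801-8966816, score 306) lay over the first bases of exon 84, next to the exon 83 peak on the mRNA. MUC16 has 16 exons of 68 bases, 14 of 173 bases, 15 of 36 bases and 10 of 66 bases. Exon 33 and exon 63, each listed in another line, had the same base at 61 of 68 positions (89.7%), whereas exon 83 shared 31 and 32 of 68 bases with them. Against the exons of 68 bases, exon 33 had a median identity of 89.7% (highest 97.1%) and exon 63 of 85.3%, so their match was a usual one. Exon 83 had a median of 47.1% and a highest of 54.4%. Of the bases of the exon 33 peak, 85.3% were in 50-base words with 2 copies in the genome, and of the exon 49 peak 30.1%; the other MUC16 peaks held none.

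MUC4 is a membrane-bound mucin that can bind the receptor ERBB2. It lies at chr3:195473636-195538844 on the minus strand, and exon 2 (12708 bp) makes up 75.8% of its mRNA, with 55.3% serine, threonine and proline. Residues of this exon matched each other best 32 residues apart, at 61.2% identity. The HL60 peak in the middle of the repeats (chr3:195510231-195510611, 381 bp) lay wholly in repeated words, with up to 14 copies of a word, and had a score of 51.4, at percentile 0.892. The 885 bp HL60 peak near the front of exon 2 (chr3:195516406-195517290, score 393, percentile 80.8) held no repeated word, and neither did the 110 bp peak at the front of exon 3 (chr3:195505217-195505326, score 90.4). The only HL60/MX2 peak (chr3:195517229-195517519, 291 bp, score 209) joined the front of the 885 bp peak, with 62 bases in common.

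MUC12 and MUC17 are membrane-bound mucins of the gut and neighbours on chromosome 7. MUC12 (chr7:100612846-100662220, plus strand) has 15 exons in its longest coding transcript, and exon 5 (14935 bp) makes up 89.2% of the mRNA. All 5 MUC12 peaks lay in exon 5. The HL60 peak at chr7:100638957-100646564 was 7608 bp long, the longest of the list, in which the next peak had 3095 bp, and it covered 50.9% of exon 5. Its score of 3100 was shared by 8 peaks of the HL60 list and lay at percentile 99.9. In 99.4% of its bases it lay in repeated words with up to 6 copies, and its sequence matched itself at 59.1% of positions 84 bases apart.

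The highest MUC12 score of HL60/MX2 was also 3100 (chr7:100636698-100637473, 776 bp), a value shared by 53 peaks of that list, and 87.2% of this peak lay in repeated words. It did not overlap the long HL60 peak, which began 1483 bp after it. At the far end of exon 5, HL60 had a peak of 1009 bp (chr7:100647792-100648800, score 914, percentile 97.8) that stopped exactly at the exon end, and HL60/MX2 had a peak of 349 bp inside it (chr7:100648086-100648434, score 1525, percentile 97.8). These stretches were nearly free of repeated words, at 4.56% and 0%, and the first HL60 peak of the exon (chr7:100634555-100635130, 576 bp, score 149) had 22.2%. MUC12 thus held the highest mucin score in each list.

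MUC17 (chr7:100663353-100702140, plus strand) has an exon 3 of 12219 bp, 85.1% of its mRNA, that reads as 60.3% serine, threonine and proline and repeats every 59 residues at 61.1% identity. The HL60 peak lay within these repeats (chr7:100684532-100684790, 259 bp, score 163), with 63.7% of its bases in repeated words. In HL60/MX2 a peak of 216 bp lay at the front of the exon (chr7:100675129-100675344, score 871, percentile 92.5) with no repeated word. The other HL60/MX2 peaks covered all 160 bp of exon 9 (chr7:100695084-100695243, score 112), where 11.1% of residues were cysteine, and 47 bp of exon 11 (chr7:100696620-100696666, score 245). These short exons lie after the repeats, in the part that holds the membrane anchor.

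**Figure D2:**
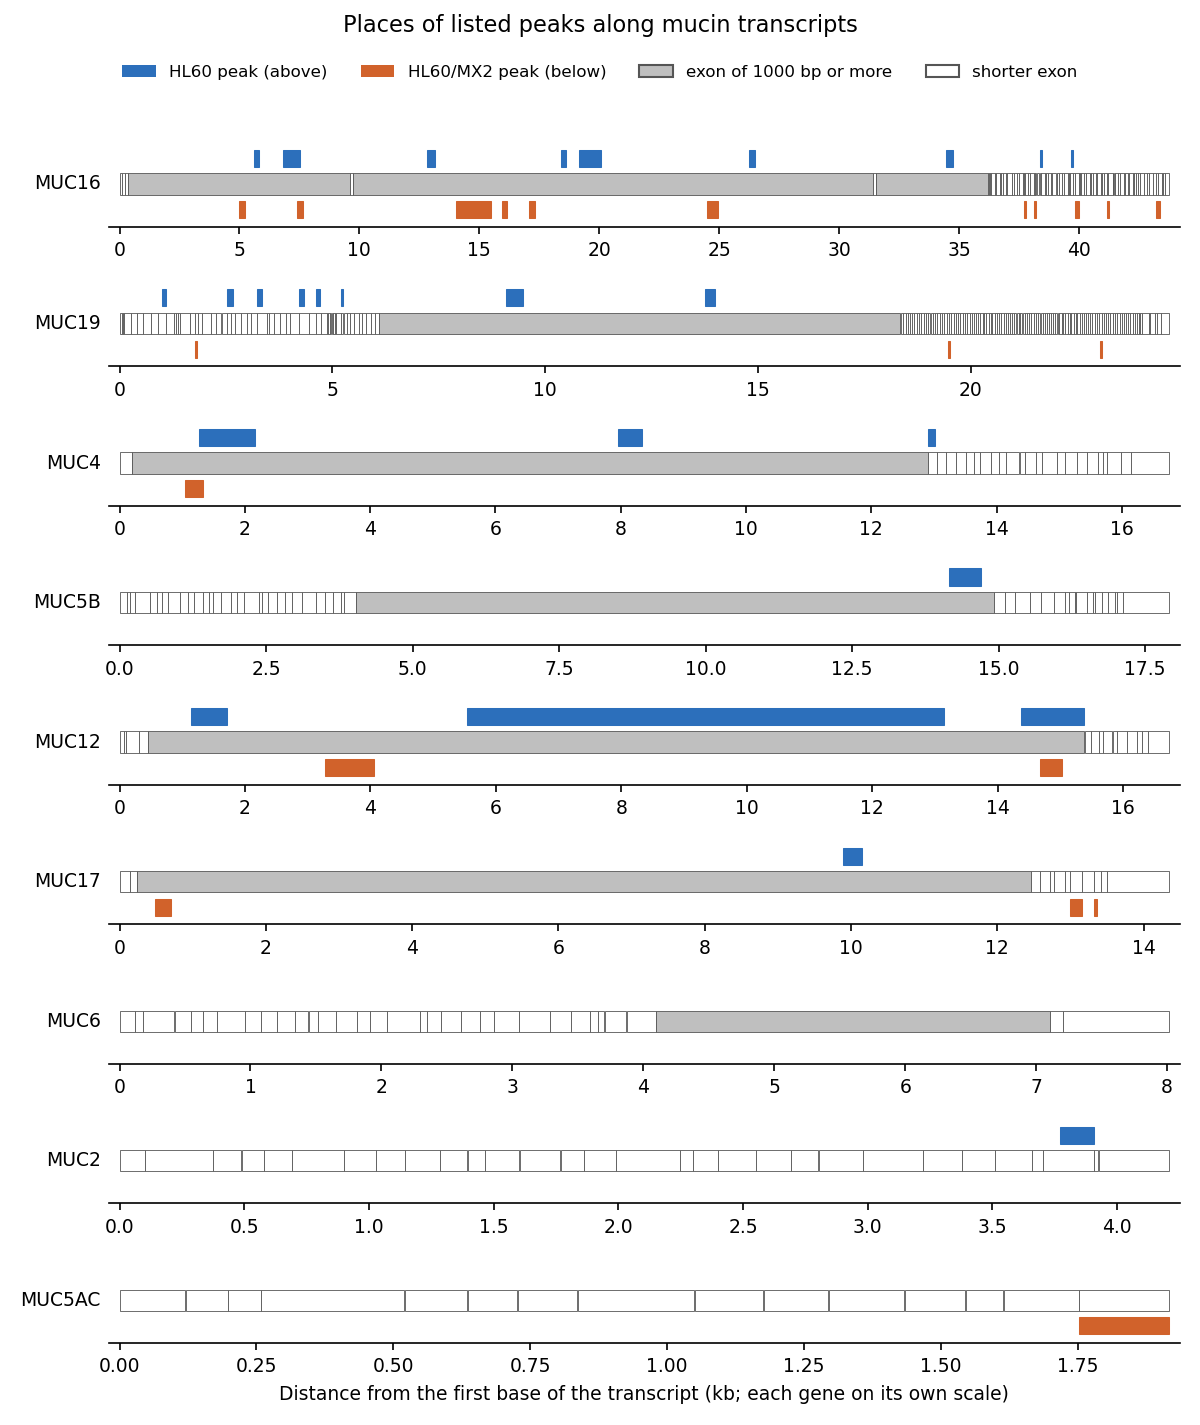
Mucin transcripts from their first base (x axis, kb, each gene on its own scale), with exons of 1000 bp or more in grey, shorter exons in white, HL60 peaks above and HL60/MX2 peaks below; very short peaks are drawn wider so that they can be seen, and 1 MUC2 peak and 2 MUC5AC peaks outside these transcripts are not drawn. The peaks of the lists met in MUC16, MUC4 and MUC12, at 1 place each.

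Across the 9 genes, 3 mucin peaks overlapped a peak of the other list, which is 10.7% of those in HL60 and 12.5% of those in HL60/MX2. In the whole lists 495 peaks overlapped, or 6.13% of HL60 and 6.09% of HL60/MX2. The MUC16 overlap of 122 bases was 17.3% of the HL60 peak and 53.3% of the HL60/MX2 peak, and the MUC4 overlap of 62 bases was 7.01% and 21.3%. The MUC12 overlap of 349 bases was 34.6% of the HL60 peak and the whole of the HL60/MX2 peak. In none of the 3 did the overlap reach 50% of both peaks. The nearest peak of the other list was more than 1000 bp away for 22 of 28 HL60 peaks and 18 of 24 HL60/MX2 peaks. The same count was not made over the whole lists, so it is given as a description only.

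Mucin peaks had a median length of 242 bp in HL60 (range 22 to 7608) and 190 bp in HL60/MX2 (range 11 to 1468), beside 129 and 133 bp for all listed peaks. Peaks of at least 500 bp made up 8 of 28 (28.6%) in HL60 and 2 of 24 (8.33%) in HL60/MX2, beside 4.13% and 3.23% of the lists. Peaks in large exons were the longer ones. In exons of at least 1000 bp the medians were 397.5 bp in HL60 (16 peaks) and 279.5 bp in HL60/MX2 (10 peaks), and every one of these peaks was longer than the median of its list. In shorter exons the medians were 103.5 bp (12 peaks) and 67 bp (14 peaks), with 2 MUC5AC peaks in an exon of 991 bases among them. Apart from the 1013 bp MUC2 peak, each peak of a shorter exon lay within that exon. Such a peak can be no longer than its exon, and why peaks met exon ends was not tested. An end of the peak coincided with an exon end for shorter exons in 11 of 12 HL60 peaks and in 13 of 14 HL60/MX2 peaks, but for large exons in 1 of 16 and 0 of 10. This was not counted over the whole lists, so it cannot be called a trait of mucin peaks.

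The median score of mucin peaks lay at percentile 55.8 of the HL60 list and at percentile 62.5 of the HL60/MX2 list. Above the list median were 14 of 28 HL60 peaks and 16 of 24 HL60/MX2 peaks. In the top 25% of scores of their lists lay 10 HL60 peaks and 10 HL60/MX2 peaks, and in the lowest 25% lay 7 and 2. Many scores recur in the lists, and 16 of the HL60 and 13 of the HL60/MX2 mucin peaks had a score that at least 10 peaks of their list shared. In the whole lists this held for 3896 of 8070 HL60 peaks and 3844 of 8122 HL60/MX2 peaks.

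**Figure D3:**
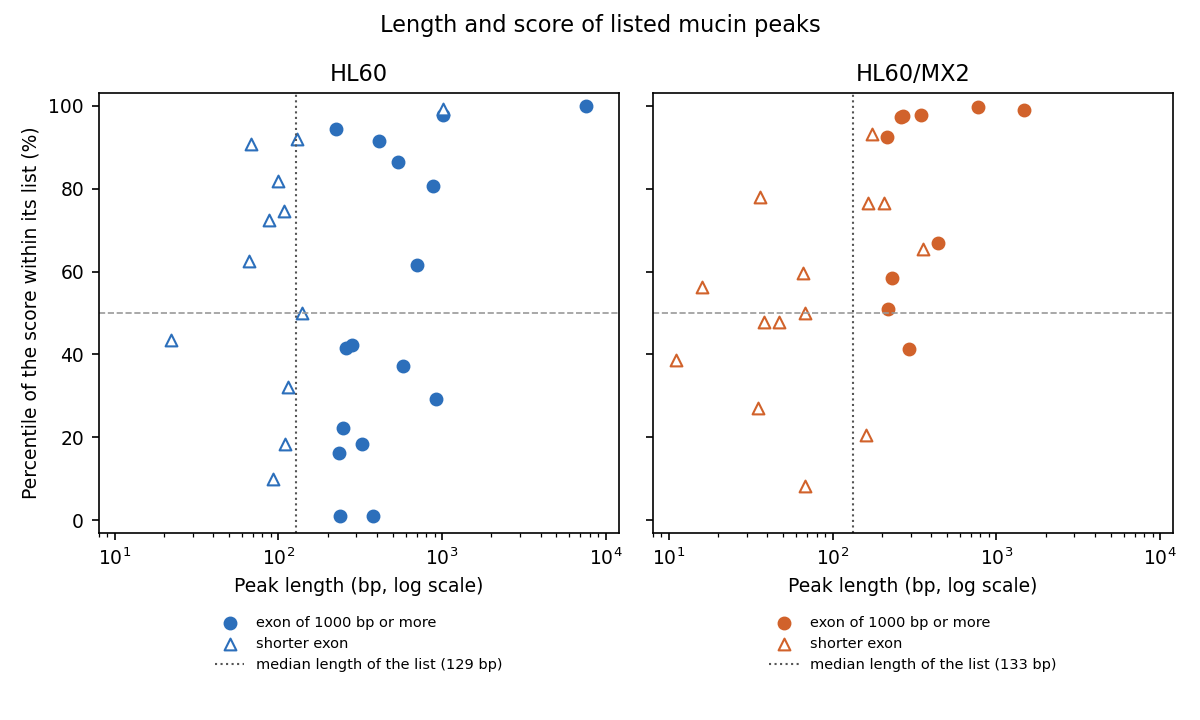
Length (x axis, bp, log scale) and percentile of the score within its own list (y axis) of each listed mucin peak, with filled circles for exons of 1000 bp or more and open triangles for shorter annotated exons. Every circle lies right of the dotted median length of the list (129 bp in HL60 and 133 bp in HL60/MX2), and the triangle at 1013 bp is the MUC2 peak over a 37-base annotated exon.

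Of the mRNA of the longest coding transcripts of the 9 genes, 68.6% lies in exons of at least 1000 bp (101.7 kb). These exons held 16 of 27 HL60 peaks placed on those transcripts (59.3%) and 10 of 22 HL60/MX2 peaks (45.5%). Their density was 0.157 peaks per kb in HL60 against 0.0983 in HL60/MX2. In the remaining 46.6 kb of shorter exons the density was 0.236 against 0.257. By bases the order was the other way, since peaks of large exons were longer. HL60 peaks covered 14.6% of the large exons and 2.22% of the shorter ones, and HL60/MX2 peaks covered 4.45% and 1.89%. Without the 7608 bp peak of MUC12, an alternative chosen after seeing the data, HL60 peaks covered 7.13% of the large exons.

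The residues under the peaks differed between these exon classes. In large exons, all 15 HL60 peaks and all 10 HL60/MX2 peaks with a readable frame covered at least 40% serine, threonine and proline. None of them covered a cysteine. The whole large exons read as 47.8% in MUC16, 55.3% in MUC4, 53.4% in MUC5B, 57.3% in MUC12 and 60.3% in MUC17. Their cysteine share was 1.98% in MUC5B and at most 0.123% in the others. The contrast is thus one of the exons themselves and does not bear on where peaks fell. In shorter exons 2 of 11 HL60 peaks and 2 of 10 HL60/MX2 peaks reached 40%, in MUC2 exon 28 and MUC4 exon 3 and in MUC16 exons 26 and 30, and 6 and 5 peaks covered at least 1 cysteine. On the longest coding transcripts no peak lay in the first exon, the peak nearest to the start began at base 989 in HL60 and at base 487 in HL60/MX2, and every peak covered coding sequence. The first exons are only 52 (MUC19) to 194 (MUC4) bases long, a very small part of this mRNA. That none held a peak is therefore a description only. Of the peaks outside those transcripts, the 355 bp MUC5AC peak of HL60/MX2 began at base 1 of the noncoding transcript that holds it, and the 1013 bp MUC2 peak of HL60 covered a transcript of 1 exon.

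**Figure D4:**
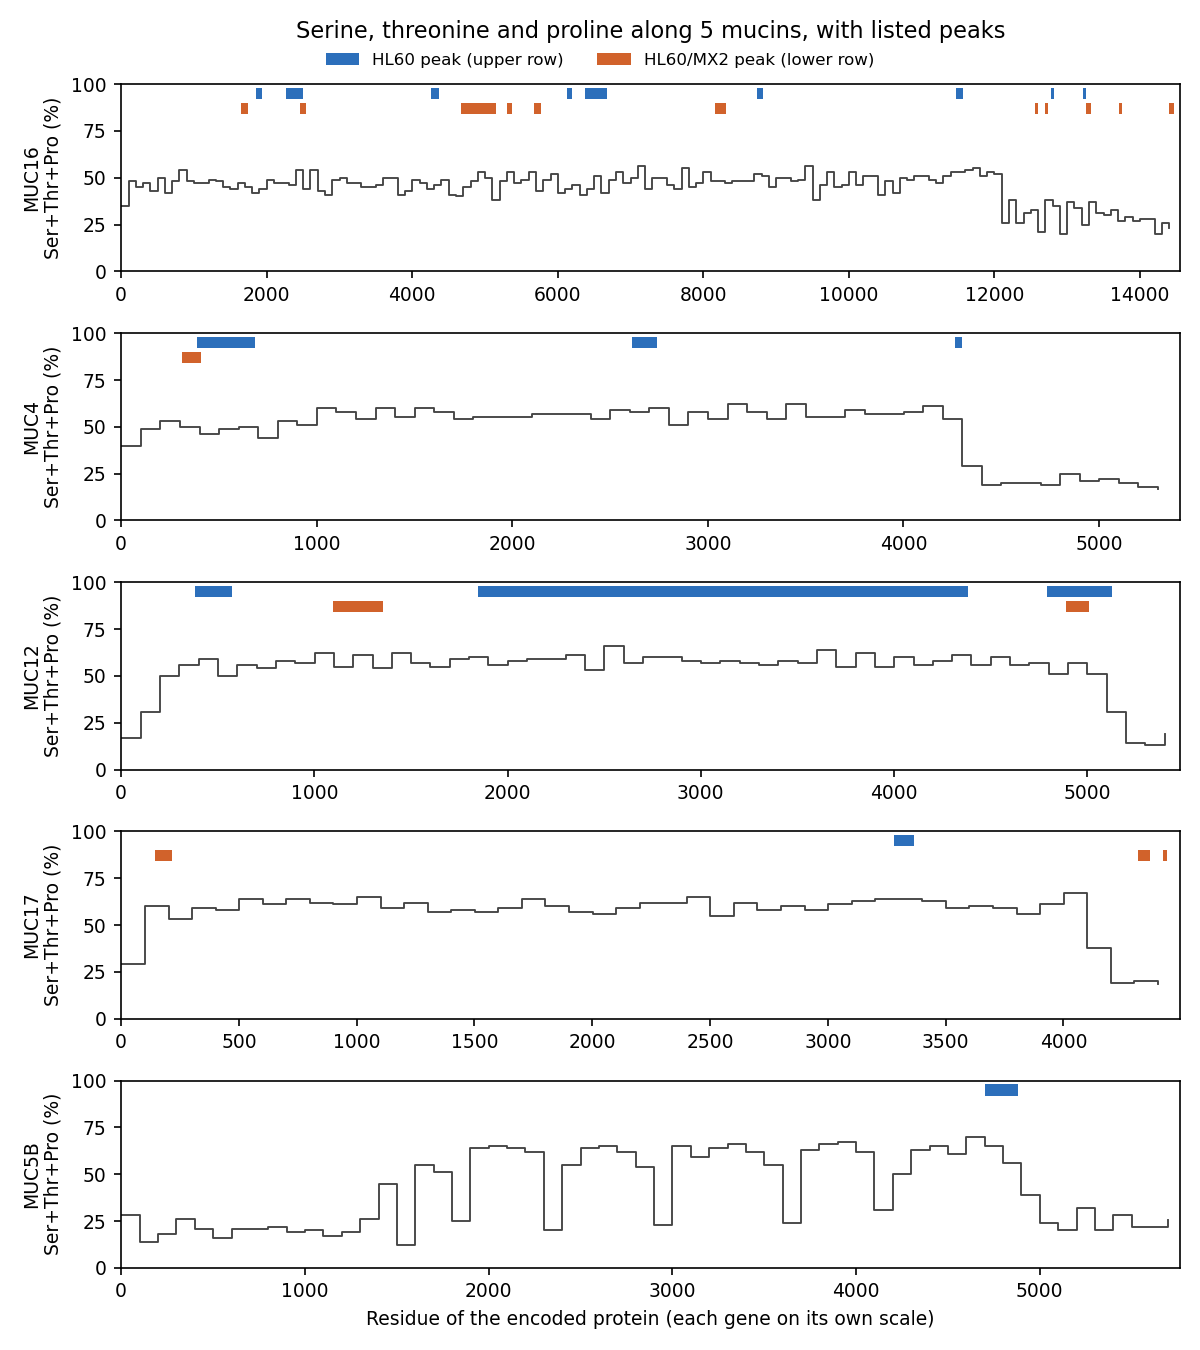
Share of serine, threonine and proline in successive stretches of 5 mucins (y axis, %, over the residue number on the x axis, each gene on its own scale), with HL60 peaks in the upper row and HL60/MX2 peaks in the lower row. Peaks lay both over the stretches rich in these residues and, in MUC16 and MUC17, behind the drop that follows them. In MUC4 the last peak ended just before the drop, at residue 4300.

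In repeated sequence, meaning peaks with at least 50% of their bases in 50-base words found more than once in hg19, were 6 of 28 HL60 mucin peaks (21.4%) and 2 of 24 HL60/MX2 mucin peaks (8.33%). In the whole lists the shares were 7.60% and 7.68%. The HL60 peaks were those in MUC12 (7608 bp), MUC4 (381 bp), MUC16 exon 33, MUC19 (235 bp), MUC2 (1013 bp) and MUC17, and the HL60/MX2 peaks were 1 in MUC12 (776 bp) and 1 in MUC5AC (355 bp). In HL60 their scores ran from 51.4 in MUC4, beside a lowest score of 50 in the list, to 3100 in MUC12, beside a highest of 3177. How the reads that match several places were placed is not given in the sources used here, and its part in these values was not tested.

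**Figure D5:**
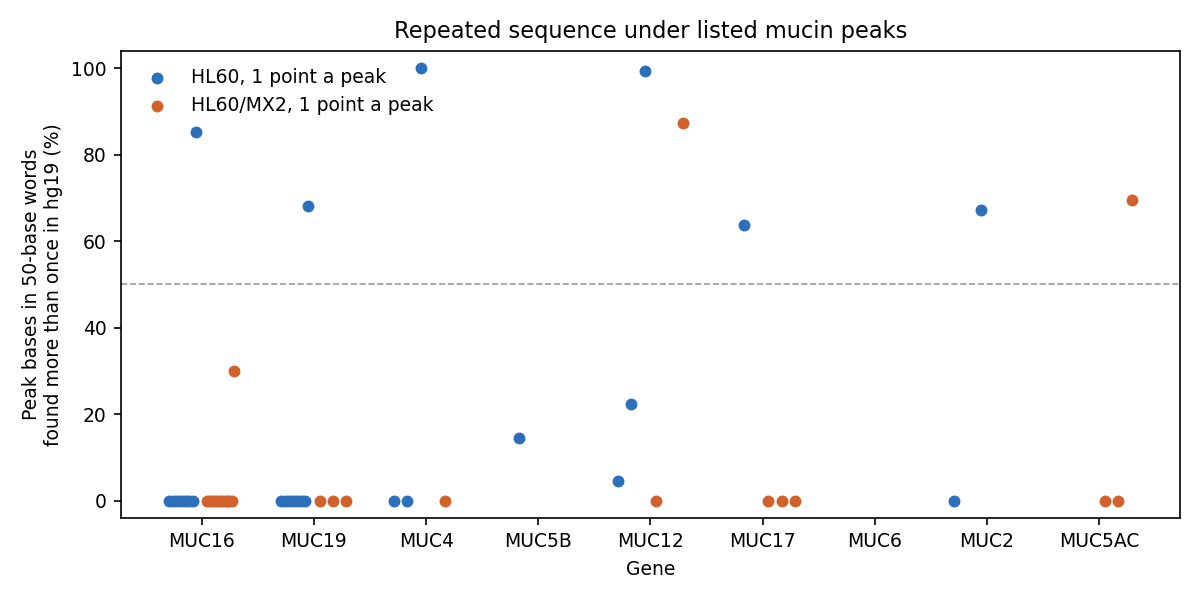
Share of the bases of each listed mucin peak that lie in 50-base words found more than once in hg19 (y axis, %), 1 point a peak, by gene and line, with the 50% limit dashed. Most points lie at 0, and 6 HL60 and 2 HL60/MX2 peaks lie above the limit.

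On the strand of the gene, mucin peaks were poorer in G and richer in C than the lists. G made up 17.3% of the bases under HL60 mucin peaks and 19.2% under HL60/MX2 mucin peaks, beside 22.6% and 25.4% under all listed peaks and 21.9% over all exons of the 9 genes. C made up 36.4% and 32.8%, beside 22.2% and 23.8% in the lists and 32.2% over the mucin exons. Without the longest MUC12 peak the HL60 shares were 17.5% G and 34.5% C. Counted on that strand with overlapping matches, words of CTG followed by GA, GG, TA or TG together occurred 3.61 times per kb under HL60 mucin peaks (5.59 without the longest) and 6.37 under HL60/MX2 mucin peaks, and words of GGAA followed by A or G, which can overlap the first set, 1.24 (1.61 without the longest) and 1.68 times. The lists had 6.51 and 7.01 of the first set and 4.35 and 4.55 of the second per kb, and the mucin exons 9.62 and 2.37. Most bases under mucin peaks lay in large exons (14853 of 16903 in HL60 and 4520 of 5965 in HL60/MX2). The composition of large exons alone was not counted, so exon class and place of the peaks cannot be told apart here.

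Other genes of mucin biology were counted from fixed lists. The counts are to be read beside the 27.0% of all protein-coding genes with a peak in HL60 and the 29.5% in HL60/MX2. A peak in both lines was listed for 2470 of the 20162 genes. The fixed lists were not matched for exon length. Among genes with at least 5930 bp of exon the shares were 40.3% in HL60 and 43.2% in HL60/MX2. Of 13 other mucin genes, 6 had a peak in HL60, 5 in HL60/MX2, 3 in both (MUC1, MUC13 and MUCL3) and 5 in neither. MUCL3, a mucin-like gene of the MHC region, had an HL60 peak of 961 bp (score 573) and an HL60/MX2 peak of 280 bp (score 259.7) that overlapped in exon 5. MUC15, MUC21 and MUC3A were listed in HL60, and MUC7 and OVGP1 in HL60/MX2. Of 9 annotated genes with von Willebrand D domains or related domains, the kind that links gel-forming mucins, 7 were listed in HL60 (BMPER, KCP, OTOG, OTOGL, TECTA, VWDE and VWF) and 4 in HL60/MX2 (KCP, TECTA, VWDE and VWF), all of which were among the 7.

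Of 30 genes for mucin-type O-glycosylation, the enzymes that start and extend the sugars, 6 had a peak in HL60, 10 in HL60/MX2, 3 in both and 17 in neither, where all genes had one in 27.0% and 29.5% of cases. The genes in both were GALNT10, GALNT12 and GALNT13, which start the sugar chain on serine or threonine. Of 12 genes of goblet cells, which make and release gel-forming mucins, 4 had a peak in HL60 (AGR2, BEST2, CLCA1 and ZG16) and 1 in HL60/MX2 (CLCA1), with overlapping peaks of CLCA1 in exon 6. Of 6 granule genes of promyelocytes, the cell type of the line, 1 (CTSG) had an HL60 peak and 0 had an HL60/MX2 peak. A listed peak does not give the level of an mRNA, and the expression of the mucin genes in these cells was not analysed here.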

How the data were processed

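The 2 peak lists of the m7G-enriched libraries were used, 1 for HL60 and 1 for HL60/MX2, and the input libraries were not analysed here. The authors trimmed reads with Cutadapt 1.9.3, aligned them to hg19 with Hisat2 2.0.4, called peaks with MACS and kept those over exons of protein-coding genes. The score deposited for each peak was taken as it is, with a percentile within its list. Starts were counted from 1. Genes and transcripts came from GENCODE release 44 placed on hg19 (20162 protein-coding genes). A peak was placed on the transcript with the longest coding sequence, and large exons were those of at least 1000 bp. A repeat period was the shift at which a sequence matched itself best. Words of 50 bases were counted on both strands of the whole genome. The members, gene lists and limits were chosen with earlier results of these data known, and named genes were the 9 mucins and, of the other lists, members with a peak, in alphabetical order up to 10. The scripts used Python 3.11.15, numpy 2.4.6, numba 0.67.0 and matplotlib 3.10.9 and were tested on simulated data. Depth is not known from the lists, and precision is limited by how few peaks there are. Alternatives for the exons, overlap, score, length, strand, word length and residue limit were tried.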

Additional observations from a re-analysis of the deposited data

How the results depend on the processing

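Of 30 alternative values, 21 stayed within 1.5 times the count that was reported or, for medians, within a 95% interval taken over the peaks. For median length this interval was 114 to 414 bp in HL60 and 66 to 268 bp in HL60/MX2. For the median score percentile it was 32.02 to 81.983 in HL60 and 47.796 to 92.471 in HL60/MX2. The intervals are wide, and the peaks of 1 library are not replicates. That the medians stayed within them is therefore a weak check. With peaks at or above the median score of their list, the HL60 mucin peaks went from 28 to 15 and the genes listed in both lines from 5 to 2. With an overlap of at least 50% of both peaks, 0 of the 3 overlaps between the lists remained. With a limit of 50% serine, threonine and proline the rich peaks numbered 8 in HL60 and 7 in HL60/MX2, instead of 17 and 12. With words of 100 bases the peaks in repeated sequence were 3 in HL60 and 1 in HL60/MX2, and with words of 36 bases they were 4 in HL60/MX2, instead of 6 and 2. Without the longest MUC12 peak, an alternative chosen after seeing the data, the covered share of the large exons in HL60 was 7.13% instead of 14.6%. Each of these changes follows from the alternative itself, since it keeps fewer peaks or sets another limit. No paired analysis was possible because each line has 1 enriched library and no result came from a test.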

Other observations

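Each listed peak carries a running number in its name. Between the first and the last listed peak of MUC16 the numbers spanned 33 in HL60, where 9 peaks were listed over 79.7 kb, and 55 in HL60/MX2, where 12 were listed over 120.2 kb. For MUC19 they spanned 27 in each line, over 71.8 kb with 9 listed peaks in HL60 and over 125.3 kb with 3 in HL60/MX2. What the numbers in between stood for is not given in the sources used here.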
